A study of Mus musculus with 27 samples.

Results

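The comparison described here set CD11b+ cells from the hippocampus (HC) of mice that went through CUMS against the same cells from NAIVE mice. CUMS, chronic unpredictable mild stress, is a schedule of changing mild stressors used in rodents as a model of depression. All mice were of the strain the labels call C57BJ6, and the labels name no transgene, allele, agent or age for either group. The groups were the HC CUMS libraries (n = 3) and the HC NAIVE libraries (n = 2), which make up 5 of the 27 samples of the series. CD11b+ cells had been sorted by flow cytometry and their polyadenylated RNA sequenced as paired ends from strand-specific libraries. Genes were kept when 10 or more read counts were present in at least 2 of the 5 libraries, which left 13604 of the 53412 genes in the count table. HC libraries of mice given CUMS with minocycline (HC CUMS_M, n = 3) belonged to the same experiment. So did the prefrontal cortex libraries (PFC CUMS, n = 2, and PFC NAIVE, n = 2). Their values are given only where they are named. The main statistical fit used all 15 libraries of the experiment in 6 groups, PFC libraries of mice given CUMS with minocycline included. Scaling factors, standard errors and p-values of the HC comparison therefore draw on all 15 libraries.

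CD11b is an integrin chain, encoded by Itgam, that microglia carry together with infiltrating monocytes, neutrophils and the macrophages of the meninges and perivascular spaces. Stressors raise circulating glucocorticoids, which bind the glucocorticoid receptor, a transcription factor present in microglia. The receptor switches on a set of target genes that includes brakes on inflammation, such as the NF-kB inhibitor Nfkbia and the MAP kinase phosphatase Dusp1. Immediate early genes form another quick response, turned on by cell stimulation, and tissue dissociation is known to turn them on in microglia as well.

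The HC CUMS libraries held 13183045, 14513747 and 14425227 counts, against 12798451 and 11806044 counts in the HC NAIVE libraries. Values per library are CPM, read counts per 1000000 counts of the library after scaling with the TMM factors of edgeR, and fold changes are log2 values of CUMS over NAIVE with their standard error. The markers of microglia were present in every library. The fractalkine receptor gene Cx3cr1 had 7540, 8080 and 8680 CPM in HC CUMS, against 8650 and 9030 CPM in HC NAIVE. The purinergic receptor gene P2ry12 had 2520, 2690 and 3160 CPM in HC CUMS, against 2610 and 3320 CPM in HC NAIVE. Itgam itself had 500, 496 and 568 CPM in HC CUMS, against 480 and 475 CPM in HC NAIVE, although 68.7% of its exon bases are shared with another annotated gene on the same strand, so its counts are uncertain. Genes listed as markers of other cell types had counts too, some of them in few libraries. Of the lists of markers for neutrophils, monocytes, border-associated macrophages, astrocytes, oligodendrocytes, neurons, endothelial and mural cells and choroid plexus, no gene was at 0 counts in all 5 libraries. Of the lymphocyte list, the T cell genes Cd3e and Cd3g were at 0 counts in all 5. The first principal component of the 5 libraries (36.4% of the variance) did not separate the groups, with HC CUMS at -21.1, -26.7 and 23.3 and HC NAIVE at -8.76 and 33.3. HC CUMS 3 and HC NAIVE 2, the pair on its positive side, had monocyte list levels of 4.80 and 4.82 log2 CPM, against 3.27 to 3.99 in the other libraries. The second component (28% of the variance) had HC CUMS at -7.71, -4.31 and -33.3, all below HC NAIVE at 24.1 and 21.3.

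No gene passed the test between HC CUMS and HC NAIVE. The edgeR quasi-likelihood test with Benjamini-Hochberg adjustment called 0 of 13604 genes (0%) at an adjusted p of 0.05, with 398 genes (2.93%) at an unadjusted p under 0.05. Of these, 215 (1.58%) were higher in HC CUMS and 183 (1.35%) were lower. DESeq2 called 2 genes on the same counts, Per1 and Tril, and had 476 genes at an unadjusted p under 0.05. Per1 had the smallest adjusted p of edgeR (0.515), and that of every other gene was 0.999 or higher, so the differences below are descriptions of values and none of the genes is stated to have changed. In 1396 genes (10.3%) all HC CUMS libraries were above both HC NAIVE libraries, and in 1380 genes (10.1%) all were below. The median log2 fold change of all genes was -0.01, with 48.0% of genes above 0 and 52.0% below. A fold change of at least 2 in either direction (a log2 value of 1) was seen in 577 genes, 66 of which had a mean of 5 CPM or more.

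**Figure D1:**
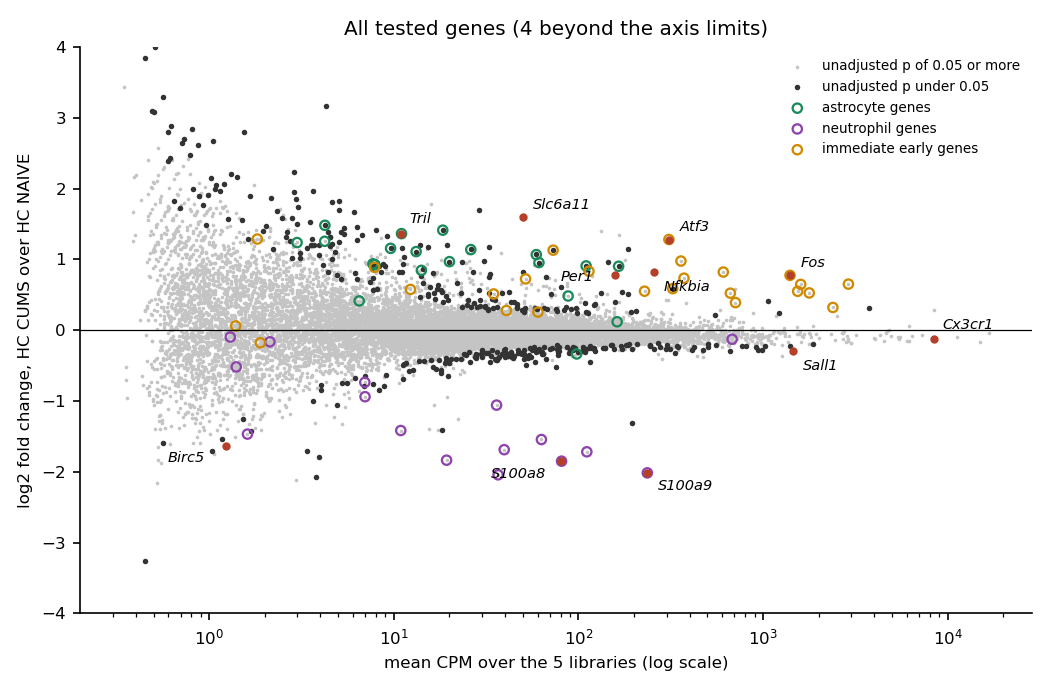
Each point is 1 of the 13604 tested genes, placed by its mean CPM over the 5 libraries (log axis) and its log2 fold change of HC CUMS over HC NAIVE, with 4 genes beyond the axis limits. Dark points have an unadjusted edgeR p under 0.05, rings mark the members of 3 lists and red dots the genes labelled by name. Astrocyte members such as Tril (1.36) lie above 0 and neutrophil members such as S100a9 (-2.02) below it.

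Glucocorticoid-responsive genes were higher in HC CUMS in 20 of 22 members, with a median log2 fold change of 0.28. The groups did not overlap in 10 members that were higher and in 1 that was lower, where 10.3% and 10.1% of all genes did so. Per1, a circadian repressor that glucocorticoids induce directly and the gene with the smallest p of the whole comparison (ENSMUSG00000020893, chromosome 11, 69095217 to 69109960, plus strand, GRCm38), had 186, 187 and 193 CPM in HC CUMS, against 127 and 92.2 CPM in HC NAIVE. The HC CUMS libraries lay close together and all above HC NAIVE, with means of 189 ± 4.08 CPM in HC CUMS and 110 ± 24.5 CPM in HC NAIVE (SD, n = 3 and 2). Its log2 fold change was 0.79 ± 0.15 (edgeR adjusted p = 0.515, DESeq2 adjusted p = 0.00234), and over the other settings tried the value stayed between 0.57 and 1.03 while the adjusted p ran from 6.51e-07 to 1.0. Nfkbia, which holds NF-kB in the cytoplasm, had 379, 325 and 222 CPM in HC CUMS, against 196 and 153 CPM in HC NAIVE (log2 fold change 0.82 ± 0.23). Tsc22d3, the gene of the glucocorticoid-induced leucine zipper GILZ, had 216, 177 and 196 CPM in HC CUMS, against 134 and 136 CPM in HC NAIVE (0.54 ± 0.24). For both genes every HC CUMS library was above both HC NAIVE libraries.

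Other members of this list were less even between libraries. Dusp1 had 947, 700 and 564 CPM in HC CUMS, against 563 and 271 CPM in HC NAIVE, so the lowest CUMS library and the higher NAIVE library were nearly equal (log2 fold change 0.82 ± 0.37). Mt2, a metal-binding metallothionein, had 12, 8.34 and 13.3 CPM in HC CUMS, against 3.53 and 5.58 CPM in HC NAIVE (1.30 ± 0.64), and 73.5% of its exon bases overlap a gene on the opposite strand. The kinase gene Sgk1 had 629, 620 and 499 CPM in HC CUMS, against 531 and 474 CPM in HC NAIVE, and its groups overlapped. Fkbp5, a co-chaperone that lowers the hormone affinity of the receptor and is itself a receptor target, had 132, 136 and 201 CPM in HC CUMS, against 134 and 125 CPM in HC NAIVE, with the CUMS mean set by HC CUMS 3. Averaged over the list, the level was 5.12, 4.93 and 5.13 log2 CPM in HC CUMS, against 4.70 and 4.65 log2 CPM in HC NAIVE. The groups did not overlap in this level, and the median fold change of the list stayed between 0.27 and 0.39 when any 1 library was left out.

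The promoters of Per1, Nfkbia, Dusp1 and the early kinase gene Plk2 are shown as examples of genes of the glucocorticoid-responsive and immediate early lists that were higher in every HC CUMS library. Each is the RefSeq window of 300 bases (GRCm38.p6) with 250 bases before the transcription start site and 50 from it on, read 5' to 3' on the gene's strand. Per1 has 2 annotated windows, of which the one at the lower coordinate is given. Capitals mark matches on either strand to the E box CACGTG bound by clock factors, to the cyclic AMP response element TGACGTCA, to the kappa B sequence GGGANTTTC and to AGAACA, the hexamer of glucocorticoid receptor sites. Per1 is at chr11:69098699-69098998 on the plus strand, Nfkbia at chr12:55492598-55492897 on the minus strand, Dusp1 at chr17:26508423-26508722 on the minus strand and Plk2 at chr13:110394794-110395093 on the plus strand.
Per1: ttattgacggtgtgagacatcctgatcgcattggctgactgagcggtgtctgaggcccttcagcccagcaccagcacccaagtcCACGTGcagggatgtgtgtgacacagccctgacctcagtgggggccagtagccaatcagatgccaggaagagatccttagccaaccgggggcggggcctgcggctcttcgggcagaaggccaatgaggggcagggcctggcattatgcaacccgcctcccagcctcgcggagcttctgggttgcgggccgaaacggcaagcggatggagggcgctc
Nfkbia: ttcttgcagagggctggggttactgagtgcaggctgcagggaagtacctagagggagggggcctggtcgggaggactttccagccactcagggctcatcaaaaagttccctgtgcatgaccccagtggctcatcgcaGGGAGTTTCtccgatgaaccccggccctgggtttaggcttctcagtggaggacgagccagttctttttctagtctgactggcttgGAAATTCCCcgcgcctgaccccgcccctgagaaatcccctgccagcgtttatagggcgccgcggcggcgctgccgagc
Dusp1: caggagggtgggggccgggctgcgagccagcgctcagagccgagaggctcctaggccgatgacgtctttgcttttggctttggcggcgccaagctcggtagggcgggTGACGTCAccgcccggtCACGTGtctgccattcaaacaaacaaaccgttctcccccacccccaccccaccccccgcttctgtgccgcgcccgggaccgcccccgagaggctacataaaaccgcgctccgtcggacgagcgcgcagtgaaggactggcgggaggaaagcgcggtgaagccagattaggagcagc
Plk2: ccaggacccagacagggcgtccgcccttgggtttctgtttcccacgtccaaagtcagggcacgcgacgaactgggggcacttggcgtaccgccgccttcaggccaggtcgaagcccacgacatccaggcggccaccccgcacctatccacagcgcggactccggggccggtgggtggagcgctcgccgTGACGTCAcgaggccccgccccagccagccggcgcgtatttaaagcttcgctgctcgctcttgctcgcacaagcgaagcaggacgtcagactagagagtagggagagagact
The Per1 window held 1 E box and none of the other motifs. The Nfkbia window held 2 kappa B matches, and both genes with a cyclic AMP response element, Dusp1 and Plk2, carried it upstream of the start site. Over all 32851 windows the E box was found in 7.15%, the cyclic AMP response element in 1.79%, the kappa B sequence in 1.11% and AGAACA in 19.0%. The glucocorticoid-responsive list had 31 windows (20 genes with a window), of which 6 held the E box (19.4%), 2 the cyclic AMP response element (6.45%), 1 the kappa B sequence (3.23%) and 6 AGAACA (19.4%). The immediate early list had 27 windows (21 genes), of which 5 held the E box (18.5%), 4 the cyclic AMP response element (14.8%), 0 the kappa B sequence and 1 AGAACA (3.7%). These matches describe letters within the windows only.

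Genes of the receptors and of the clock did not share the Per1 pattern. The glucocorticoid receptor gene Nr3c1 had 208, 221 and 234 CPM in HC CUMS, against 210 and 240 CPM in HC NAIVE, a log2 fold change of -0.03 ± 0.09 whose sign turned when HC CUMS 1 or HC NAIVE 2 was left out. In the list of corticosteroid receptors and their partners 4 of 10 genes were above 0 (median -0.01, which turned to 0.02 without HC NAIVE 1). Of the core clock genes, a list without Per1, 12 of 18 tested genes were above 0 (median 0.03, which turned to -0.04 without HC NAIVE 2), and none had an unadjusted p under 0.05. Per2, the close relative of Per1, had 11.8, 12.6 and 14.3 CPM in HC CUMS, against 18.3 and 17.5 CPM in HC NAIVE, so that it was lower in every CUMS library (-0.47 ± 0.28). Nr1d1, the nuclear receptor REV-ERB alpha, had 44.3, 59.3 and 83.5 CPM in HC CUMS, against 49.5 and 49.0 CPM in HC NAIVE. Its CUMS libraries lay on both sides of the NAIVE values.

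**Figure D2:**
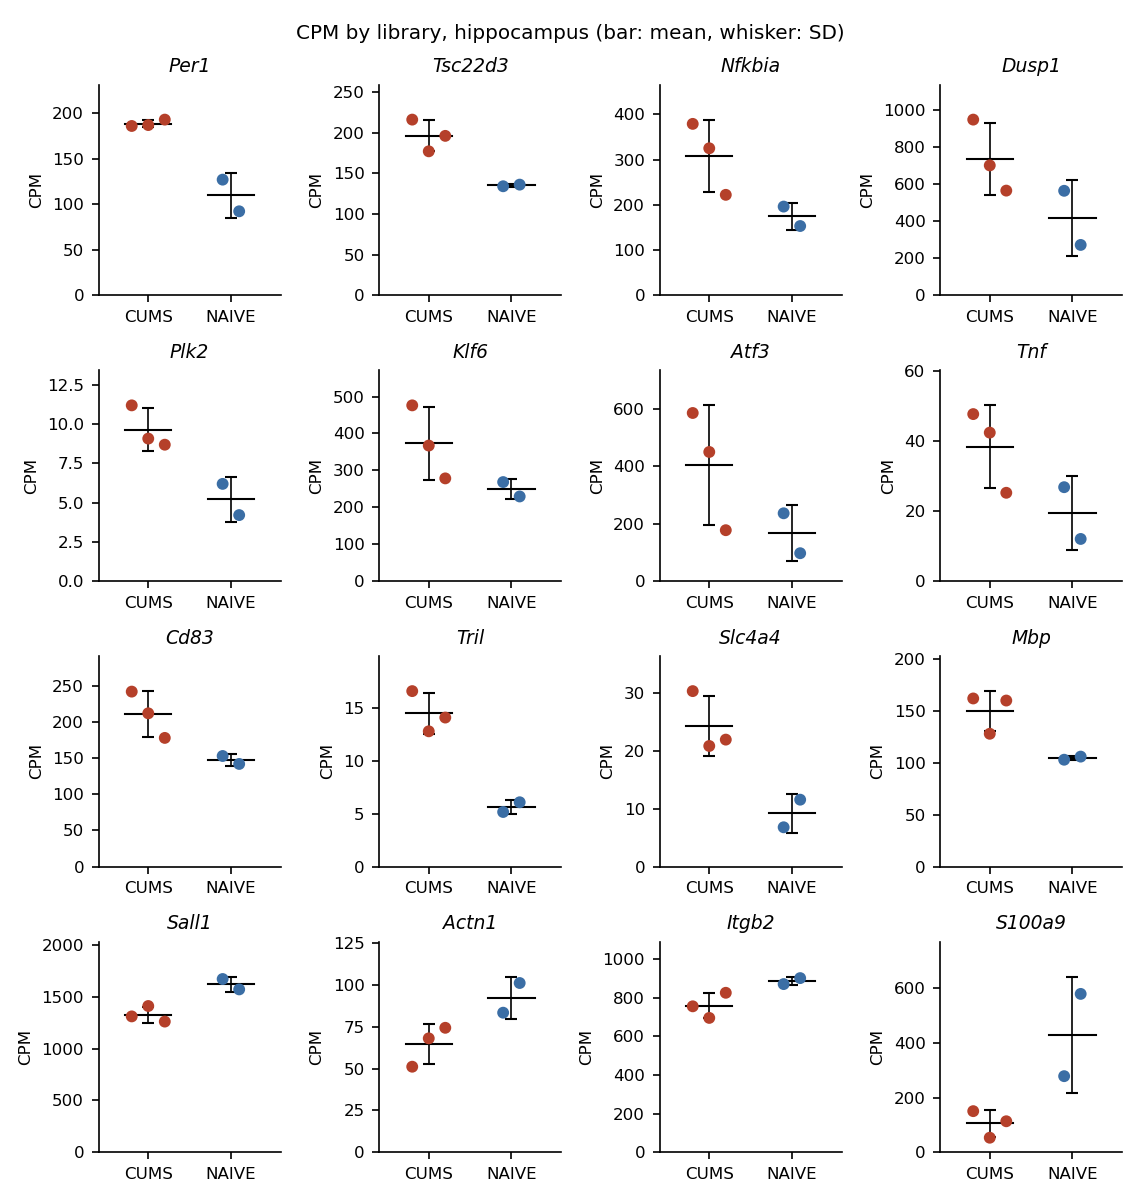
CPM of 16 genes in each HC library, with CUMS (n = 3) left of NAIVE (n = 2). Points are libraries, bars are group means and whiskers are SDs. Per1, Tsc22d3, Tril and Slc4a4 were higher in every CUMS library, Sall1, Actn1, Itgb2 and S100a9 were lower in every CUMS library, and Atf3 and Tnf overlapped.

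Immediate early genes were higher in HC CUMS in 24 of 25 tested members, with a median log2 fold change of 0.59, but the libraries overlapped in most of them. The members without overlap were 5, namely Fosl2, Klf6, Dusp1, Maff and Plk2, where 10.3% of all genes were higher without overlap, and Dusp1 belongs to the glucocorticoid-responsive list as well. Plk2, a polo-like kinase induced by activity, had 11.2, 9.08 and 8.69 CPM in HC CUMS, against 6.19 and 4.20 CPM in HC NAIVE (0.89 ± 0.30). Klf6, a zinc finger transcription factor, had 476, 367 and 278 CPM in HC CUMS, against 268 and 229 CPM in HC NAIVE (0.59 ± 0.21). In both genes HC CUMS 1 was the highest library and HC NAIVE 2 the lowest. The AP-1 gene Fos had 2360, 1550 and 1130 CPM in HC CUMS, against 1320 and 648 CPM in HC NAIVE (0.77 ± 0.39). Atf3, a stress-induced partner of AP-1, had 586, 450 and 177 CPM in HC CUMS, against 236 and 96.7 CPM in HC NAIVE (1.28 ± 0.54). The nuclear receptor gene Nr4a1 had 181, 142 and 92.9 CPM in HC CUMS, against 102 and 53.0 CPM in HC NAIVE (0.83 ± 0.38). In all 3 genes HC CUMS 3 lay between the NAIVE libraries. Klf4 had the same order, with 127, 96.1 and 56.3 CPM in HC CUMS, against 56.6 and 28.3 CPM in HC NAIVE (1.13 ± 0.48). The list level was 7.72, 7.39 and 6.86 log2 CPM in HC CUMS, against 7.08 and 6.30 log2 CPM in HC NAIVE. Leaving out HC CUMS 1 lowered its median fold change to 0.38, and leaving out HC NAIVE 2 lowered it to 0.24. Leaving out HC NAIVE 1 gave 1.19.

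Other stress-response genes varied in their order of libraries. Of the MAP kinase phosphatases, 7 of 9 tested members were above 0 (median 0.10, and 0.03 without HC NAIVE 2). Dusp2, which inactivates ERK and p38 in immune cells, had 5.98, 7.27 and 6.40 CPM in HC CUMS, against 2.90 and 2.57 CPM in HC NAIVE, with no overlap (1.25 ± 0.51). Heat shock chaperones were above 0 in 17 of 22 members with a median of 0.18, which was 0.06 without HC CUMS 1. The inducible chaperone gene Hspa1a had 317, 117 and 95.5 CPM in HC CUMS, against 99.7 and 33.8 CPM in HC NAIVE, so that HC CUMS 1 stood alone. Hsp90aa1, an inducible HSP90 that also folds steroid receptors, had 212, 132 and 142 CPM in HC CUMS, against 116 and 111 CPM in HC NAIVE (0.52 ± 0.26), and all its CUMS libraries were above both NAIVE libraries. Hspa8, the constitutive HSP70, had 1090, 844 and 878 CPM in HC CUMS, against 840 and 753 CPM in HC NAIVE (0.24 ± 0.12). Of 20 tested genes of the integrated stress and unfolded protein responses, 7 were above 0 (median -0.04).

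Inflammatory genes showed no shared direction, and their list medians moved with single libraries. NF-kB subunits and feedback genes were above 0 in 11 of 18 cases (median 0.02, which turned to -0.04 without HC CUMS 1). Inflammatory cytokines and their receptors had 9 of 15 above 0 (median 0.02), chemokines 8 of 13 (0.11) and inflammasome genes 8 of 13 (0.10). Type I interferon response genes were above 0 in 14 of 25 cases (median 0.04, between -0.11 without HC CUMS 1 and 0.12 without HC NAIVE 2). A few inducible genes had the library order of the immediate early genes. Tnf, the cytokine TNF, had 47.7, 42.4 and 25.2 CPM in HC CUMS, against 26.8 and 12 CPM in HC NAIVE (0.98 ± 0.37). Nfkbiz, a nuclear NF-kB cofactor, had 246, 185 and 103 CPM in HC CUMS, against 115 and 68.1 CPM in HC NAIVE (0.96 ± 0.37). Cxcl2, a chemokine that attracts neutrophils, had 12.9, 6.32 and 2.29 CPM in HC CUMS, against 3.60 and 1.63 CPM in HC NAIVE (1.44 ± 0.59). HC CUMS 3 lay below HC NAIVE 1 in each of them. The chemokine gene Ccl4 had 111, 95.3 and 56.7 CPM in HC CUMS, against 65.1 and 42.6 CPM in HC NAIVE (0.70 ± 0.33). Il1b, the gene of interleukin-1 beta, had 42.0, 30.9 and 31.2 CPM in HC CUMS, against 22.1 and 30.0 CPM in HC NAIVE. Its CUMS libraries were all higher, the lowest of them by little (0.41 ± 0.27). Cd83, a surface protein of activated antigen-presenting cells, had 242, 212 and 178 CPM in HC CUMS, against 153 and 142 CPM in HC NAIVE, with no overlap (0.52 ± 0.13).

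Toll-like receptors and their adaptors were above 0 in 9 of 22 members, and the median of -0.04 turned to 0.02 without HC CUMS 2 and to 0.03 without HC NAIVE 2. In 6 members every HC CUMS library was lower, where 10.1% of all genes did so. Cd180, a TLR4-like receptor that restrains TLR signalling, had 284, 305 and 319 CPM in HC CUMS, against 345 and 409 CPM in HC NAIVE (-0.32 ± 0.13). Tlr9, a sensor of unmethylated DNA, had 288, 310 and 364 CPM in HC CUMS, against 370 and 385 CPM in HC NAIVE (-0.24 ± 0.10). Tlr2, a receptor for bacterial lipoproteins, had 179, 168 and 178 CPM in HC CUMS, against 186 and 220 CPM in HC NAIVE (-0.21 ± 0.10). The 3 genes were lower in every CUMS library by small amounts.

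Microglial identity genes lay slightly below 0, with 19 of 26 below 0 and 7 above it. Their median was -0.07, and -0.02 without HC CUMS 1. Their summed level was 69800, 73500 and 79400 CPM in HC CUMS, against 76500 and 81000 CPM in HC NAIVE. Tmem119, a surface marker of microglia, had 4210, 4640 and 5230 CPM in HC CUMS, against 4690 and 4810 CPM in HC NAIVE, a log2 fold change of -0.02 ± 0.10. Csf1r, the receptor that keeps microglia alive, had 13200, 13500 and 15800 CPM in HC CUMS, against 15800 and 16100 CPM in HC NAIVE (-0.17 ± 0.09). Trem2, a lipid receptor, had 1510, 1560 and 1470 CPM in HC CUMS, against 1600 and 1530 CPM in HC NAIVE (-0.05 ± 0.09), and its groups overlapped. Sall1, a zinc finger transcription factor that maintains microglial identity (chromosome 8, 89027235 to 89044162, minus strand), stood out among them. It had 1310, 1410 and 1260 CPM in HC CUMS, against 1670 and 1570 CPM in HC NAIVE. All its CUMS libraries were lower, with a log2 fold change of -0.29 ± 0.09 that stayed between -0.33 and -0.25 under every other setting tried (edgeR unadjusted p = 0.00292, adjusted p = 0.999, and 0.66 to 1.0 over those settings). Tgfbr2, a TGF-beta receptor on which the microglial state depends, had 909, 911 and 1040 CPM in HC CUMS, against 1120 and 1110 CPM in HC NAIVE (-0.23 ± 0.09). Rhob, a small GTPase, went the other way, with 4480, 4290 and 3500 CPM in HC CUMS, against 3680 and 2910 CPM in HC NAIVE (0.31 ± 0.12), and its groups overlapped. Of 16 microglial lineage transcription factors, 7 were above 0 and the median was -0.01. The myeloid factor Spi1 (PU.1) had 448, 418 and 455 CPM in HC CUMS, against 491 and 461 CPM in HC NAIVE.

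Several functional groups of microglia lay slightly below 0. Actin and motility genes were below 0 in 18 of 24 members (median -0.10, and -0.04 without HC NAIVE 2 or without HC CUMS 2). Actn1, an actin crosslinker, had 51.1, 68.0 and 74.3 CPM in HC CUMS, against 83.3 and 101 CPM in HC NAIVE (-0.52 ± 0.14), the smallest p among the genes that were lower. Tln1, which links integrins to actin, had 1080, 1050 and 1030 CPM in HC CUMS, against 1280 and 1110 CPM in HC NAIVE (-0.18 ± 0.09). Complement components and receptors were below 0 in 14 of 17 tested members (median -0.15), but the median was -0.01 without HC NAIVE 2, -0.06 without HC CUMS 2 and -0.29 without HC CUMS 3. The integrin chain Itgb2, partner of CD11b in complement receptor 3, had 756, 696 and 826 CPM in HC CUMS, against 871 and 902 CPM in HC NAIVE (-0.22 ± 0.09). Itgax (CD11c), a chain of complement receptor 4 and a gene of disease-associated microglia, had 25.6, 29.5 and 41.0 CPM in HC CUMS, against 41.2 and 44.3 CPM in HC NAIVE (-0.42 ± 0.18). Both chains were lower in every CUMS library. The C1q gene C1qa had 6160, 5960 and 6710 CPM in HC CUMS, against 6340 and 6940 CPM in HC NAIVE (-0.08 ± 0.10). C3 had 14.6, 4.64 and 34.4 CPM in HC CUMS, against 18 and 33.6 CPM in HC NAIVE. C3 differed more within each group than between the groups. Fc gamma receptor and ITAM signalling genes were below 0 in 14 of 15 members (median -0.07), genes for the recognition and uptake of apoptotic cells in 15 of 21 (median -0.06), and purinergic receptor and ectonucleotidase genes in 8 of 11 (median -0.09, which turned to 0.02 without HC NAIVE 2). Growth factors of microglia were above 0 in 8 of 13 tested members (median 0.22, and 0.11 without HC NAIVE 2), 5 of them without overlap, where 10.3% of all genes were higher without overlap.

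Lysosomal enzymes and membrane proteins were below 0 in 24 of 25 members (median -0.14). Of these 3 did not overlap, a share of the list near the 10.1% of all genes that were lower without overlap. Cd68, a lysosomal glycoprotein of phagocytes, had 849, 811 and 1060 CPM in HC CUMS, against 1020 and 1190 CPM in HC NAIVE (-0.28 ± 0.12). Npc1, which moves cholesterol out of lysosomes, had 347, 363 and 435 CPM in HC CUMS, against 433 and 492 CPM in HC NAIVE (-0.28 ± 0.11). Both overlapped by a narrow margin through HC CUMS 3. Cathepsins were below 0 in 10 of 12 tested members (median -0.09), and Ctsa, a lysosomal carboxypeptidase, had 1300, 1280 and 1380 CPM in HC CUMS, against 1570 and 1490 CPM in HC NAIVE, without overlap (-0.22 ± 0.09). MHC class I presentation genes were below 0 in 13 of 14 members (median -0.10). Psmb9, a subunit of the immunoproteasome, had 41.1, 35.5 and 40.3 CPM in HC CUMS, against 49.1 and 48.5 CPM in HC NAIVE (-0.32 ± 0.12). The nonclassical class I gene H2-T23 had 193, 191 and 202 CPM in HC CUMS, against 219 and 230 CPM in HC NAIVE (-0.20 ± 0.09). Both were lower in every CUMS library. MHC class II genes were below 0 in 10 of 11 members with a median of -0.31, which was -0.02 without HC NAIVE 2 and -0.61 without HC NAIVE 1. The class II list was highest in the libraries with the highest monocyte level, with 7.37 log2 CPM in HC CUMS 3 and 7.62 log2 CPM in HC NAIVE 2, against 6.99 to 7.21 log2 CPM in the others. The part of monocyte RNA in this was not tested. Disease-associated microglia genes were below 0 in 16 of 20 members (median -0.14, and -0.05 without HC NAIVE 2). Apoe, a lipid carrier of that list, had 2780, 2230 and 2900 CPM in HC CUMS, against 2410 and 2170 CPM in HC NAIVE.

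Genes of protein synthesis and respiration were also on the low side, with values that moved with HC NAIVE 2. Cytosolic ribosomal protein genes were below 0 in 32 of 35 members (median -0.12), and without HC NAIVE 2 the median turned to 0.06. Nuclear-encoded oxidative phosphorylation genes were below 0 in 27 of 30 members (median -0.12), and the median was -0.01 without HC NAIVE 2. Further lists of metabolism gave no common direction. Mitochondrially encoded genes, of which 8 of 13 were tested, had a median of -0.04, glycolysis enzymes -0.02 and cholesterol and fatty acid synthesis genes 0.02. Oxidative stress and NADPH oxidase genes, a list of stress genes, were below 0 in 15 of 19 members (median -0.08, and -0.02 without HC NAIVE 2). The mitochondrial value was 0.58 without HC NAIVE 2 and -0.44 without HC NAIVE 1. The ribosomal and oxidative phosphorylation lists had their highest level in HC NAIVE 2, with 8.83 log2 CPM for the ribosomal list against 8.46 to 8.61 log2 CPM in the other 4 libraries.

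**Figure D3:**
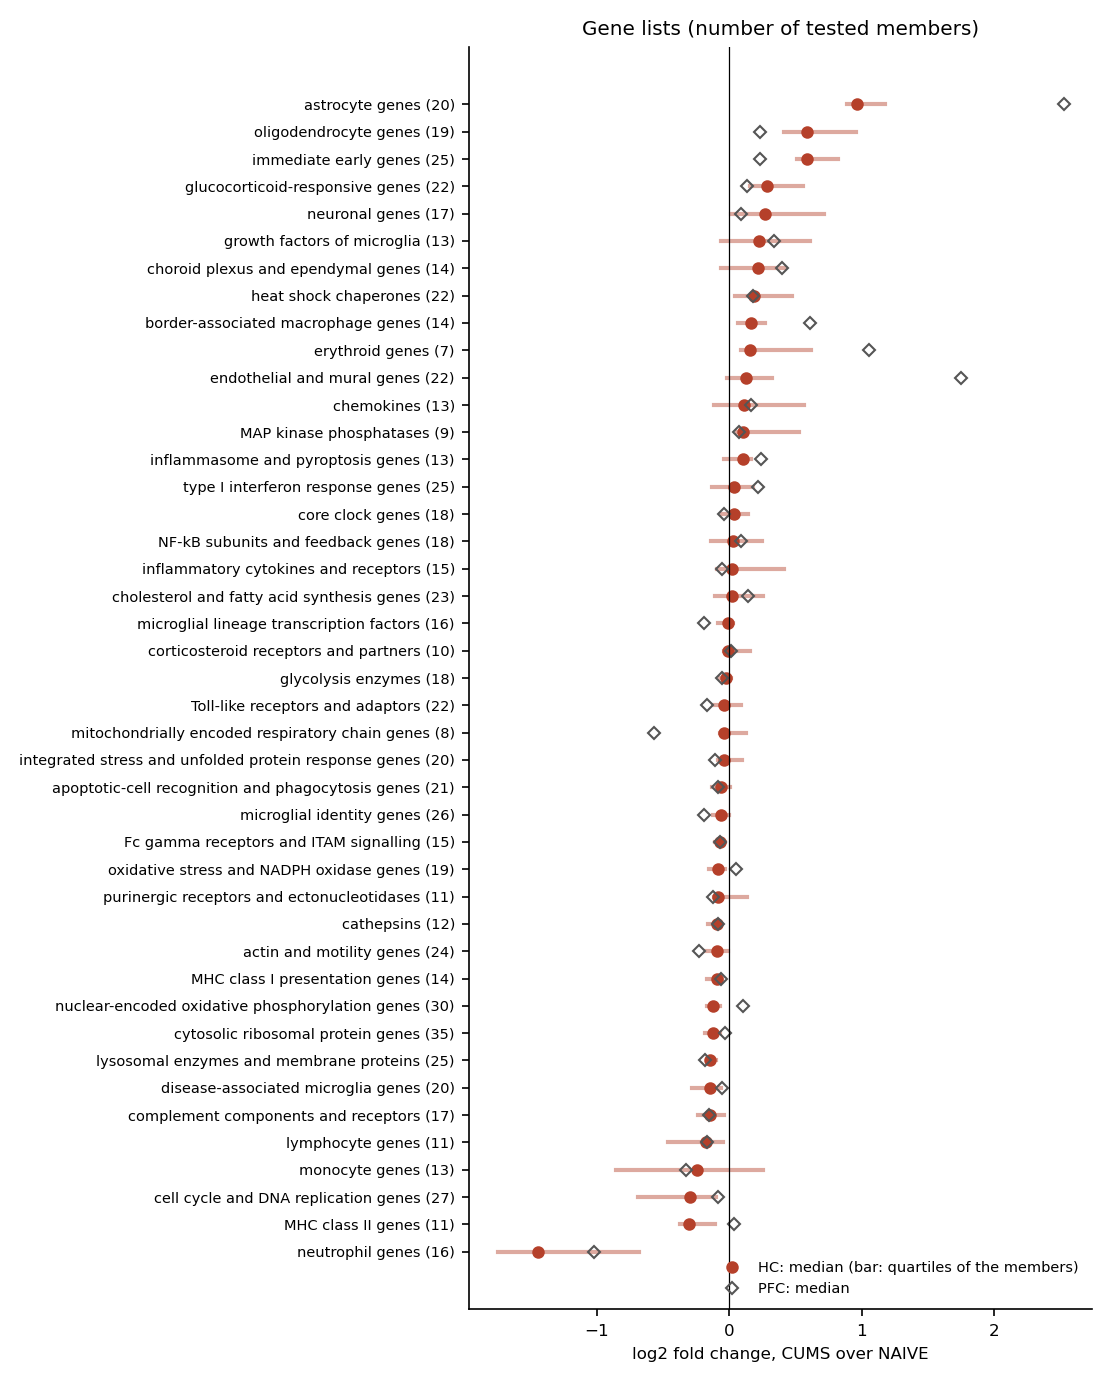
Median log2 fold change of CUMS over NAIVE for 43 gene lists, in HC (red dots, with bars from the lower to the upper quartile of the members) and in PFC (open diamonds). Astrocyte genes (0.96 in HC) are at the top and neutrophil genes (-1.44 in HC) at the bottom, and most microglial lists lie within 0.2 of 0 in HC.

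Markers of astrocytes and oligodendrocytes had larger median differences than any list of microglial genes. Astrocyte genes were above 0 in 19 of 20 members with a median of 0.96. In 17 of them the groups did not overlap, where 10.3% of all genes were higher without overlap, and 13 had an unadjusted edgeR p under 0.05, where 1.58% of all genes did in that direction. In bulk RNA more cells of a type and more RNA per cell cannot be told apart. Handling of the samples and treatment cannot be told apart either. How astrocyte RNA came to be in cells sorted for CD11b was not tested. Tril, a TLR4 accessory protein expressed by astrocytes, had 16.6, 12.8 and 14.1 CPM in HC CUMS, against 5.17 and 6.09 CPM in HC NAIVE (1.36 ± 0.30, edgeR adjusted p = 0.999, DESeq2 adjusted p = 0.0488, and 0.0132 to 1.0 over all other settings). Its counts may include RNA of a gene on the opposite strand, which overlaps 21.4% of its exon bases. Slc4a4, a bicarbonate transporter, had 30.4, 20.9 and 22 CPM in HC CUMS, against 6.82 and 11.6 CPM in HC NAIVE (1.41 ± 0.39). The folate enzyme gene Aldh1l1 had 11.1, 8.61 and 9.52 CPM in HC CUMS, against 5.17 and 5.06 CPM in HC NAIVE (0.93 ± 0.30). These 3 genes were higher in every CUMS library. Slc1a2, the glutamate transporter GLT-1, had 130, 130 and 147 CPM in HC CUMS, against 59.2 and 85.3 CPM in HC NAIVE (0.91 ± 0.39). Slc1a3, the glutamate transporter GLAST, had 150, 158 and 192 CPM in HC CUMS, against 143 and 165 CPM in HC NAIVE (0.12 ± 0.15), with overlap. The summed level of the list was 1080, 913 and 1090 CPM in HC CUMS, against 608 and 751 CPM in HC NAIVE. Leaving out any 1 library kept the median between 0.86 and 1.18.

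Genes outside the lists with a small p or a large difference included several in the same range of levels. Adcyap1r1, the receptor of the neuropeptide PACAP, had 11.8, 8.61 and 11.5 CPM in HC CUMS, against 4.39 and 3.60 CPM in HC NAIVE (1.41 ± 0.31). Htra1, a secreted serine protease, had 29.3, 19.0 and 26.5 CPM in HC CUMS, against 8.62 and 13 CPM in HC NAIVE (1.21 ± 0.32). Slc6a11, the GABA transporter GAT-3 of astrocytes, had 86.6, 56.2 and 61.0 CPM in HC CUMS, against 18.9 and 26.2 CPM in HC NAIVE (1.59 ± 0.49). In each of these the lowest CUMS library was above the higher NAIVE library. Scd1, a fatty acid desaturase, had 22.2, 14.3 and 22.5 CPM in HC CUMS, against 6.19 and 11.2 CPM in HC NAIVE (1.18 ± 0.32). Cntfr, a receptor of ciliary neurotrophic factor, had 11.7, 5.65 and 9.32 CPM in HC CUMS, against 2.98 and 4.03 CPM in HC NAIVE (1.34 ± 0.41). The kinesin heavy chain gene Kif5a, which neurons use for axonal transport, had 34.5, 31.8 and 54.6 CPM in HC CUMS, against 14.4 and 10.3 CPM in HC NAIVE (1.70 ± 0.68). In all 3 of these HC CUMS was higher without overlap. Kif5c, another neuronal kinesin heavy chain, had 5.98, 5.92 and 9.32 CPM in HC CUMS, against 2.82 and 1.12 CPM in HC NAIVE (1.83 ± 0.60). Pcsk1n, the prohormone convertase inhibitor proSAAS, had 8.49, 6.19 and 10.9 CPM in HC CUMS, against 3.76 and 2.40 CPM in HC NAIVE (1.46 ± 0.40). Rapgef4, a cyclic AMP sensor also called EPAC2, had 4.43, 4.84 and 11.7 CPM in HC CUMS, against 1.72 and 2.57 CPM in HC NAIVE (1.70 ± 0.55). These low genes were higher in every CUMS library as well, most in HC CUMS 3. The cellular source of this RNA was not tested.

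Oligodendrocyte genes were above 0 in 18 of 19 tested members with a median of 0.59, and the groups did not overlap in 14, where 10.3% of all genes were higher without overlap. The summed level of the list overlapped, with 2870, 2570 and 3010 CPM in HC CUMS, against 2780 and 2540 CPM in HC NAIVE. Most of this sum came from the 1 member that was below 0. The mean of log2 CPM over the members of the list did not overlap. Mbp, a structural protein of myelin, had 162, 128 and 160 CPM in HC CUMS, against 103 and 106 CPM in HC NAIVE (0.52 ± 0.21). Olig1, a lineage transcription factor, had 21.1, 17.3 and 20 CPM in HC CUMS, against 8.54 and 9.01 CPM in HC NAIVE (1.15 ± 0.62). HC CUMS was higher in every library for both. Mbp was the only member of the list with an unadjusted edgeR p under 0.05 (0.0247, adjusted p = 0.999), where 1.58% of all genes had one in that direction. Neuronal genes were low in every library, with summed levels of 77.0, 63.0 and 69.6 CPM in HC CUMS, against 62.3 and 60.9 CPM in HC NAIVE, and 13 of 17 tested members were above 0 (median 0.27, and 0.50 without HC NAIVE 1). Endothelial and mural genes were above 0 in 16 of 22 members (median 0.12). Their median turned to -0.07 without HC CUMS 3 and likewise to -0.07 without HC NAIVE 1, and it was 0.41 without HC NAIVE 2. Border-associated macrophage genes had 11 of 14 above 0 with a median of 0.16, which was 0.03 without HC CUMS 3 and 0.04 without HC NAIVE 1. The 7 tested erythroid genes were all above 0 (median 0.15), but without HC CUMS 3 only 2 were and the median turned to -0.22. Of 11 tested lymphocyte genes 8 were below 0 (median -0.18), and the median turned to 0.03 without HC CUMS 2 and was -0.71 without HC CUMS 3. Choroid plexus and ependymal genes had a median of 0.21 that turned to -0.58 without HC CUMS 3 and to -0.06 without HC NAIVE 1. HC CUMS 3 was the library with a summed level of 2590 CPM against 759 to 1500 CPM in the other 4.

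Neutrophil genes were lower in HC CUMS in all 16 members, with a median log2 fold change of -1.44, and the groups did not overlap in 10, where 10.1% of all genes were lower without overlap. Of the 16, 1 had an unadjusted edgeR p under 0.05, where 1.35% of all genes were lower at that p. S100a9, a calprotectin subunit (chromosome 3, 90692632 to 90695721, minus strand), had 151, 53.8 and 114 CPM in HC CUMS, against 279 and 580 CPM in HC NAIVE (-2.02 ± 0.89). S100a8, its partner, had 52.0, 26.2 and 40.8 CPM in HC CUMS, against 66.5 and 219 CPM in HC NAIVE (-1.85 ± 0.92). The antimicrobial peptide gene Camp had 28.6, 7.80 and 12.7 CPM in HC CUMS, against 40.9 and 93.4 CPM in HC NAIVE (-2.04 ± 1.02). Every CUMS library was below both NAIVE libraries in the 3 genes, and HC NAIVE 2 was the highest by a wide margin. Retnlg, a resistin-like protein of neutrophils, had 10.9, 5.52 and 12.1 CPM in HC CUMS, against 23.5 and 44.3 CPM in HC NAIVE (-1.84 ± 0.85). Ly6g, the surface antigen that defines mouse neutrophils, had 15, 12 and 13 counts in HC CUMS, against 22 and 41 counts in HC NAIVE. Csf3r, the G-CSF receptor, which microglia also express, had 720, 717 and 531 CPM in HC CUMS, against 752 and 681 CPM in HC NAIVE, with overlap (-0.13 ± 0.12). The summed level of the list was 1180, 883 and 910 CPM in HC CUMS, against 1480 and 2220 CPM in HC NAIVE, Csf3r included. Without HC NAIVE 2 the median was -1.0 and all 16 members were still below 0, while 14 or 15 were below 0 when any other library was left out.

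Monocyte and proliferation genes were measured beside the neutrophil genes. Of 13 monocyte genes 5 were above 0 (median -0.24), and the groups overlapped in each of the 13. The median turned to 0.38 without HC NAIVE 2 and to 0.04 without HC CUMS 2, and it was -0.68 without HC NAIVE 1 and -0.61 without HC CUMS 3. Cell cycle and DNA replication genes were below 0 in 24 of 27 tested members (median -0.30), 13 of them without overlap, where 10.1% of all genes were lower without overlap. Of the 27, 0 had an unadjusted edgeR p under 0.05, where 1.35% of all genes were lower at that p. Their level was 2.20, 2.16 and 2.08 log2 CPM in HC CUMS, against 2.49 and 2.58 log2 CPM in HC NAIVE. Birc5, survivin, a mitotic regulator, had 14, 4 and 10 counts in HC CUMS, against 31 and 20 counts in HC NAIVE (-1.63 ± 0.80). Ccnb1, cyclin B1, had 8, 13 and 3 counts in HC CUMS, against 15 and 19 counts in HC NAIVE (-1.31 ± 0.76). Mcm5, a subunit of the replicative helicase with more counts, had 14.6, 14.5 and 14.9 CPM in HC CUMS, against 18 and 18.1 CPM in HC NAIVE (-0.30 ± 0.18). HC CUMS was lower in every library for the 3 genes, and the part of neutrophil or monocyte RNA in this was not tested.

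**Figure D4:**
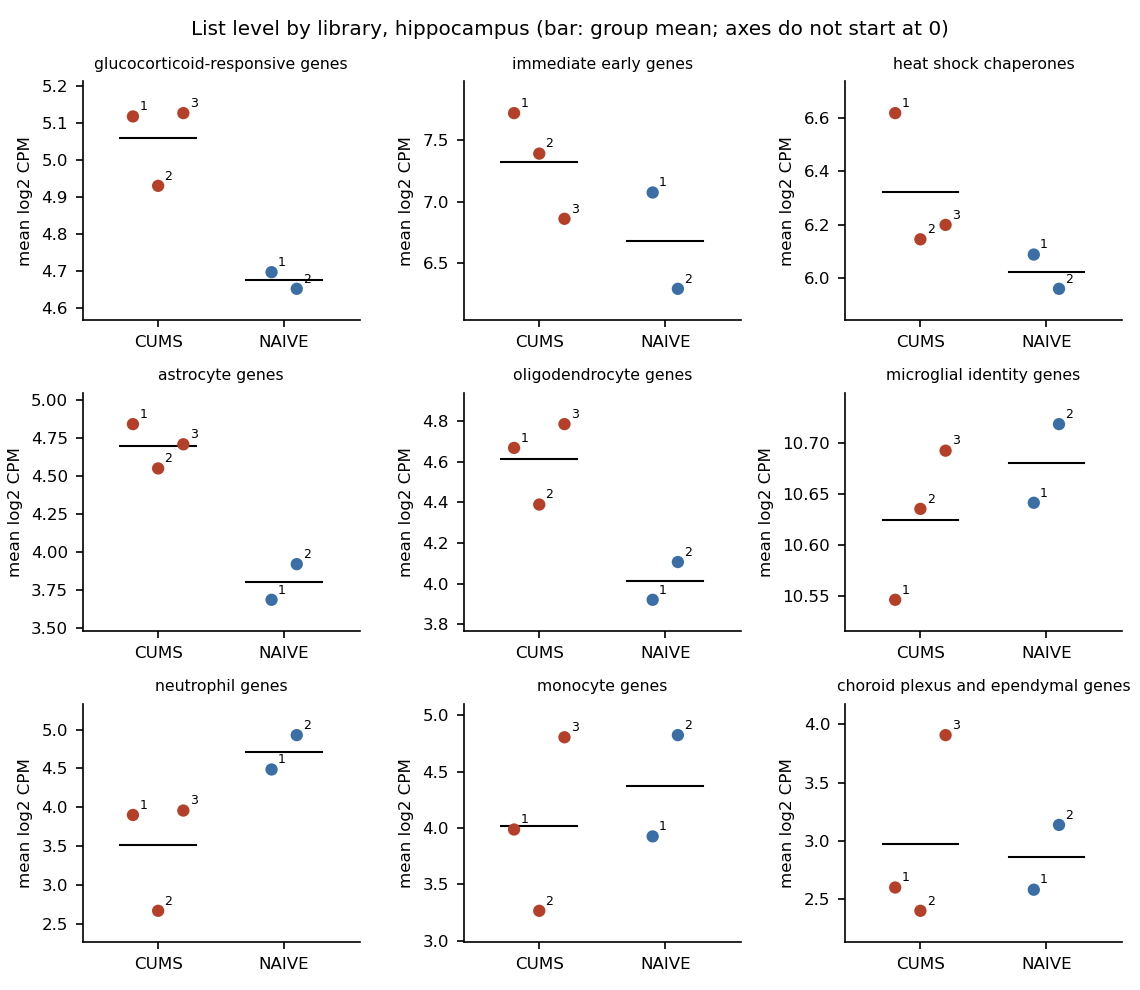
Mean log2 CPM over the tested members of 9 lists in each HC library, numbered by replicate, with CUMS left of NAIVE and bars at the group means (axes do not start at 0). The groups are apart for glucocorticoid-responsive, astrocyte, oligodendrocyte and neutrophil genes. They are apart for heat shock chaperones as well, where HC CUMS 1 stands above the others. For immediate early genes HC CUMS 3 lies between the NAIVE libraries.

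Among the remaining genes with the smallest p, Ogfrl1, a relative of the opioid growth factor receptor, had 161, 169 and 194 CPM in HC CUMS, against 133 and 132 CPM in HC NAIVE (0.39 ± 0.11). Suz12, a subunit of Polycomb repressive complex PRC2, had 25.4, 25.6 and 28.2 CPM in HC CUMS, against 19.3 and 17.3 CPM in HC NAIVE (0.53 ± 0.16). Both were higher in every CUMS library. On the lower side, Npnt, a matrix ligand of integrins, had 89.2, 96.5 and 86.9 CPM in HC CUMS, against 117 and 109 CPM in HC NAIVE (-0.31 ± 0.09). The adhesion molecule gene Sdk1 had 38.3, 46.9 and 48.2 CPM in HC CUMS, against 63.2 and 61.9 CPM in HC NAIVE (-0.49 ± 0.15). Ly9, a SLAM family receptor, had 30.1, 27.7 and 29.4 CPM in HC CUMS, against 41.8 and 37.2 CPM in HC NAIVE (-0.44 ± 0.14). The surface and matrix genes were lower in all CUMS libraries by less than a log2 value of 0.5. The H3K9 demethylase gene Kdm4a had 107, 88.2 and 101 CPM in HC CUMS, against 126 and 120 CPM in HC NAIVE (-0.31 ± 0.10). Arid5b, a chromatin-binding protein, had 57.4, 57.6 and 60.6 CPM in HC CUMS, against 69.2 and 86.6 CPM in HC NAIVE (-0.41 ± 0.13). Klhl42, an adaptor of the CUL3 ubiquitin ligase, had 14.8, 14.8 and 14.7 CPM in HC CUMS, against 19.3 and 25.7 CPM in HC NAIVE (-0.60 ± 0.19). Each was lower in every CUMS library as well. Outside the lists, weakly expressed genes with larger differences on the lower side included Pstpip1 and S100a6. Pstpip1, a cytoskeletal adaptor of leukocytes, had 6.87, 5.99 and 7.51 CPM in HC CUMS, against 10.2 and 13.4 CPM in HC NAIVE (-0.79 ± 0.28). S100a6, a calcium-binding protein, had 10.8, 7.33 and 14.6 CPM in HC CUMS, against 16.4 and 41.7 CPM in HC NAIVE (-1.41 ± 0.60). S100a6 had its highest value in HC NAIVE 2, the library that was also highest in the neutrophil genes.

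The hippocampal difference was set against the prefrontal one by a direct test. The edgeR test of the HC effect minus the PFC effect called 0 genes (0%), with a smallest adjusted p of 0.172 and 820 genes (6.03%) at an unadjusted p under 0.05, while DESeq2 called 28. Without PFC NAIVE 2 edgeR called 124 genes and without HC NAIVE 2 it called 2. Per1 had 169 and 167 CPM in PFC CUMS, against 139 and 167 CPM in PFC NAIVE, a log2 fold change of 0.14 ± 0.16. Its HC value was larger by 0.65 ± 0.21 (edgeR unadjusted p = 0.00664, adjusted p = 0.579). The glucocorticoid-responsive list had a median of 0.13 in PFC with 14 of 22 members above 0, and the immediate early list a median of 0.24 with 18 of 25 above 0. Ogfrl1 had 138 and 132 CPM in PFC CUMS, against 159 and 130 CPM in PFC NAIVE (edgeR adjusted p of the difference between regions 0.573).

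Astrocyte genes had the opposite relation between the regions. Their median was 0.96 in HC and 2.52 in PFC, where all 20 members were above 0. The PFC NAIVE libraries held 7867323 and 8199498 counts, against 12400922 and 10570300 counts in PFC CUMS. They had 13943 and 15158 genes with a count, against 18751 and 17329 in PFC CUMS. The filter on counts used the 5 compared HC libraries alone, so a gene could be kept with few counts in PFC NAIVE. How far this enters the PFC medians of this and the other lists was not tested. Aldh1l1 had 10.1 and 9.38 CPM in PFC CUMS, against 0.659 and 1.36 CPM in PFC NAIVE, and the HC effect minus the PFC effect was -2.32 ± 0.50 on the log2 scale (edgeR unadjusted p = 0.000169, adjusted p = 0.262). CUMS libraries of both regions were close to each other in this gene, and the NAIVE libraries of PFC were the lower ones. Of the 20 members 13 had an unadjusted p under 0.05 for the difference, where 6.03% of all genes did, and 0 were called. Endothelial and mural genes had a median of 0.12 in HC and 1.75 in PFC, with 9 of 22 members at an unadjusted p under 0.05 for the difference and 0 called. Oligodendrocyte genes had a median of 0.59 in HC and 0.23 in PFC. Neutrophil genes were on the low side in both, with medians of -1.44 in HC and -1.02 in PFC. Actn1 had 68.1 and 72.5 CPM in PFC CUMS, against 107 and 122 CPM in PFC NAIVE, and it fell there (-0.70 ± 0.15, edgeR adjusted p = 0.0314), as 1 of 123 genes (0.904%) called in PFC in either direction. The difference between regions for Actn1 was 0.19 ± 0.21 (edgeR adjusted p = 0.973).

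**Figure D5:**
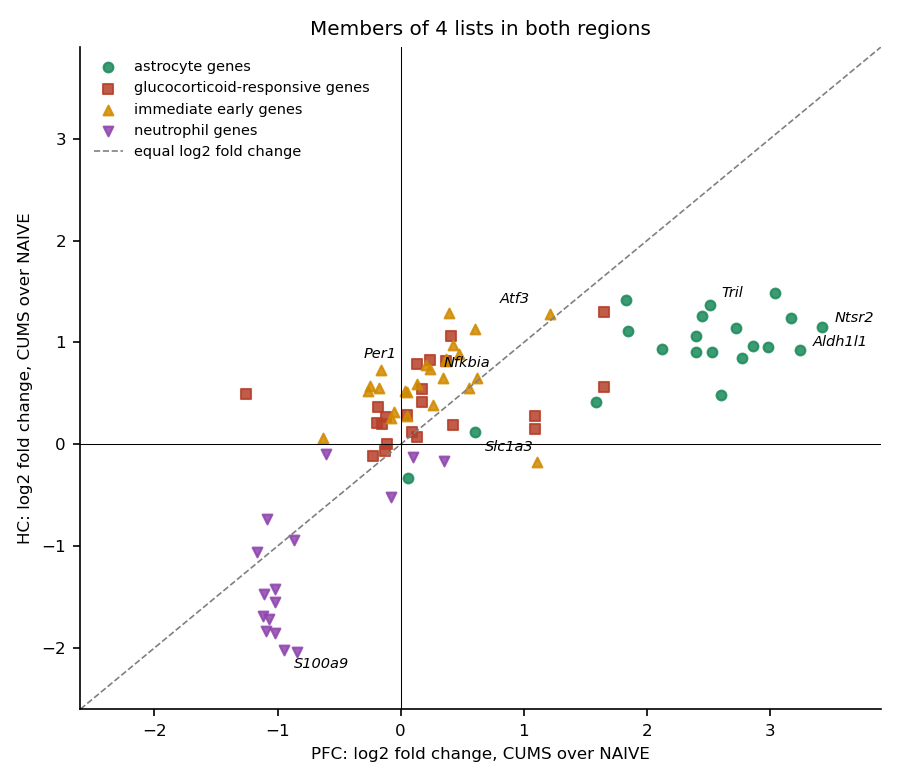
Log2 fold change of CUMS over NAIVE in HC (vertical) against PFC (horizontal) for the tested members of 4 lists, with the line of equal values. Astrocyte members lie to the right of the line (medians 0.96 in HC and 2.52 in PFC), Per1 above it, and neutrophil members below 0 in HC.

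The HC CUMS_M libraries came from CUMS mice given minocycline, a tetracycline antibiotic. Set against the same NAIVE libraries, which both comparisons share, they gave other values for some lists. Per1 had 88.8, 97.1 and 97.2 CPM in HC CUMS_M, against 127 and 92.2 CPM in HC NAIVE, a log2 fold change of -0.22 where HC CUMS gave 0.79. Immediate early genes had a median of -0.43 in HC CUMS_M against NAIVE and 0.59 in HC CUMS against NAIVE, and glucocorticoid-responsive genes -0.11 and 0.28. Astrocyte genes were alike in the pair, with medians of 0.87 in HC CUMS_M and 0.96 in HC CUMS, and Tril had 15.1, 11.3 and 12.9 CPM in HC CUMS_M. Neutrophil genes had a median of 0.10 in HC CUMS_M and -1.44 in HC CUMS, with S100a9 at 99.2, 339 and 721 CPM in the HC CUMS_M libraries. Sall1 had 1430, 1370 and 1580 CPM in HC CUMS_M, with 1 library inside the NAIVE range of 1670 and 1570 CPM.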

How the data were processed

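CD11b+ cells sorted from mouse HC and PFC were measured by RNA-seq. The authors deposited raw read counts per gene. Per the submitters' processing notes, the tools were Trimmomatic 0.36, STAR 2.6.1b, Picard 2.17.1, featureCounts 1.5.3 and DESeq2 1.24.0 with mm10/GRCm38; the strand setting of the counting and the annotation release are not given in the sources used here. Symbols and coordinates came from GENCODE M21, which matched all 53412 identifiers. From the deposited counts, edgeR 4.0.16 (R 4.3.3) fitted 6 group means over 15 libraries (TMM, robust quasi-likelihood F-test, Benjamini-Hochberg over 13604 genes, threshold 0.05). DESeq2 1.42.0 was an alternative. The fit was also run on simulated counts as a check of the code, and no result given here rests on that run. Log2 CPM used a prior count of 2. Groups came from the sample titles. The labels do not say that replicates are separate animals, so p-values measure the spread between libraries of a group. That spread was taken over all 6 groups of the fit, not over the HC CUMS and HC NAIVE libraries alone. No batch of sorting or sequencing is given, so handling and treatment cannot be told apart. No replicate pair differed by as little as sampling noise (chi-square per gene 6.2 to 24.9). Genes and the 43 lists were chosen with earlier results of these data known. Genes named are the 12 per direction with the smallest p among those without overlap and a mean of 5 CPM or more, the 8 per direction with the largest change at an unadjusted p under 0.05, the 5 members of smallest p in each list (with the 3 most abundant in marker lists), and a set of fixed microglial, hormone and neutrophil genes; not all are printed. The enrichment experiment was not used here. The values of 1 gene of the oligodendrocyte list are not reported here.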

Additional observations from a re-analysis of the deposited data

How the results depend on the processing

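Of 100 named genes, 96 kept their direction under all 12 alternatives. Many of them were named for groups without overlap or a small p in these same counts. Leaving out 1 library can hardly turn such a gene, so this count does not measure robustness. The share over all tested genes is not given here. For HC CUMS against HC NAIVE, the count of called genes was 0 with DESeq2 size factors, the filterByExpr filter, the 8 HC libraries alone and the 5 compared libraries alone. It was 17 with no filter on low counts (all higher in HC CUMS) and 2 with DESeq2, and the leave-one-out fits gave 0 to 1, the 1 being Gm24187 without HC NAIVE 2. For the HC effect minus the PFC effect it was 57 with no filter and 28 with DESeq2, and 0 to 124 when a library was left out (124 without PFC NAIVE 2, 2 without HC NAIVE 2). The causes were not tested. Replicate numbers share no origin in the labels, so no pairing was used. The deviations of same-numbered libraries correlated at 0.291 and -0.359. With 2 NAIVE libraries the deviations of 1 mirror those of the other, so these values cannot decide on pairing. With a replicate block the counts of called genes were 0 and 0, with 372 genes of HC CUMS against HC NAIVE at an unadjusted p under 0.05 (edgeR). Median log2 fold changes with 1 library left out ran from 0.2659 to 0.3906 for glucocorticoid-responsive genes, 0.2438 to 1.1866 for immediate early genes, 0.8575 to 1.1834 for astrocyte genes, 0.4931 to 0.8272 for oligodendrocyte genes, -1.7878 to -1.004 for neutrophil genes and -0.1178 to -0.0245 for microglial identity genes. Over all 43 lists, 28 kept the sign of their median whichever library was left out and 15 did not, and no median of the 15 was beyond 0.2427 in size. Among the named genes, signs turned for 4, all near 0. Tmem119 gave 0.004 with DESeq2 size factors, 0.0024 with no filter and 0.0041 with DESeq2, and -0.102 to 0.0596 with 1 library left out. The same range was -0.1187 to 0.0742 for Nr3c1, -0.2504 to 0.0981 for P2ry12 and -0.1978 to 0.0039 for Csf3r. With 2 NAIVE libraries, 1 library sets much of each mean, and counts near 10 limit the precision of the low genes.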
